A study of Rattus norvegicus with 9 samples.

Results

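The 10 core genes of the circadian clock, Nr1d1, Nr1d2, Per1, Per2, Per3, Dbp, Arntl, Clock, Cry1 and Cry2, were followed in cultured neonatal rat cardiomyocytes. They were picked by symbol with their values in these libraries already known, so their levels are given as a description, without p-values. Their Entrez gene IDs in the files are 252917 (Nr1d1), 259241 (Nr1d2), 287422 (Per1), 63840 (Per2), 78962 (Per3), 24309 (Dbp), 29657 (Arntl), 60447 (Clock), 299691 (Cry1) and 170917 (Cry2). They are 10 of the 14607 genes listed in any library, and all 10 were among the 11761 genes tested. Cells came from hearts of wild-type SD rats 1 to 2 days old and were exposed to a lentivirus for 16 h, then grown for 48 h with 10% serum. Lenti-TCF7L2 was made to overexpress TCF7L2, a transcription factor through which canonical Wnt signals act on genes, lenti-shTCF7L2 to knock it down with a short hairpin RNA, and lenti-NC was the vector control. Each group held 3 libraries of polyadenylated RNA. The labels give neither the promoter nor the species of the TCF7L2 insert, and do not say whether replicates were separate cultures. With 1 collection time and no clock hour in the labels, rhythm, phase and amplitude could not be measured.

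In the clock's main loop, the proteins of Arntl (BMAL1) and Clock pair and bind E-box sequences, switching on the Per, Cry, Nr1d and Dbp genes. PER and CRY proteins then return to the nucleus and block the pair, while the nuclear receptors REV-ERBα and REV-ERBβ, made by Nr1d1 and Nr1d2, repress Arntl through RORE sequences, and DBP activates genes with D-box sequences, Per genes among them. In heart muscle cells of mice this clock is known for daily changes in fuel use, ion channels and contractile response, and serum sets the phase of cultured cells.

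RefSeq promoter windows of 250 bases before to 50 bases after the annotated start (build GRCr8) were found for 9 of the 10 genes, 11 windows in all. All were searched on both strands for the E-box CACGTG, the D-box TTATGTAA or TTACGTAA, the RORE core TAGGTCA and the TCF/LEF motif CTTTGAT, to which TCF7L2 binds. The 4 windows below belong to the 2 receptor genes, which were lower with both TCF7L2 viruses, and to Per2 and Arntl, which carry the only other matches. They are given 5′ to 3′ on the gene's strand, and capitals mark a match.
Nr1d1, second window, chr10:84229405-84229704, minus strand: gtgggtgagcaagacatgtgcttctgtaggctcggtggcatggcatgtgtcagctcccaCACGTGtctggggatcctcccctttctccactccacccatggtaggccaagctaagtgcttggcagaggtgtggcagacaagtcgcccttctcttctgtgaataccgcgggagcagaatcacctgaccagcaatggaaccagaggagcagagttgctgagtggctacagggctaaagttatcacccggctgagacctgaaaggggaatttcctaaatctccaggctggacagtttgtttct
Nr1d2, chr15:9954784-9955083, plus strand: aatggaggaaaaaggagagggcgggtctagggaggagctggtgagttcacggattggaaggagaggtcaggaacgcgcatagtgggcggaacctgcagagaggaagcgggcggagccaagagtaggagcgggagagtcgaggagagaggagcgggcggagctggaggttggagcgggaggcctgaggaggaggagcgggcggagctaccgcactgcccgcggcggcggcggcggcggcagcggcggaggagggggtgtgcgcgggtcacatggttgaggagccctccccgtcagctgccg
Per2, chr9:99496944-99497243, minus strand: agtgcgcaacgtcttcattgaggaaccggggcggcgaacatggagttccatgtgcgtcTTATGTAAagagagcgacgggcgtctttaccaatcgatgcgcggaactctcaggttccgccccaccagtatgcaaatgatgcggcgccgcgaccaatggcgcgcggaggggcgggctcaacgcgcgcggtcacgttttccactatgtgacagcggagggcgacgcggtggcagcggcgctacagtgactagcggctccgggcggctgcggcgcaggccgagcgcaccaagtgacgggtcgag
Arntl (Bmal1 in RefSeq), chr1:176766078-176766377, plus strand: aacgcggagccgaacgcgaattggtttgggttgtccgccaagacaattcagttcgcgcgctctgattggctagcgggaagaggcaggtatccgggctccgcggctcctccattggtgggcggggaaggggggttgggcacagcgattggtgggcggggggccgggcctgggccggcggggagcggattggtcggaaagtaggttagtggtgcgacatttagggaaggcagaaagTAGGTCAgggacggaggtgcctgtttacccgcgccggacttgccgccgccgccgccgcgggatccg
The E-box of Nr1d1 begins at position -191 from that start, the D-box TTATGTAA of Per2 at -192 and the RORE core of Arntl at -16. Of 33469 windows in the table, 6.42% hold the E-box, 1.01% the D-box, 2.63% the RORE core and 3.63% the TCF/LEF motif. None of the 11 windows holds CTTTGAT, which says only that these letters are not in these windows. No other match to the letters searched was found in the 11. Near matches, which may also be bound, were not searched for, so an unmarked stretch is not shown to lack a site.

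Libraries held 15085922 to 16478295 expected counts, and levels are in CPM (counts relative to the library total after TMM scaling) unless FPKM is named. Tcf7l2 stood at 142, 206 and 85.7 CPM with lenti-TCF7L2, at 25.6, 30.3 and 25.9 CPM with lenti-shTCF7L2 and at 40.0, 36.4 and 34.1 CPM with lenti-NC. The log2 difference of lenti-TCF7L2 from lenti-NC was 1.97 (SE 0.27, edgeR quasi-likelihood test, adjusted p = 8.46e-04), a rise. With lenti-shTCF7L2 all 3 libraries lay below the control, but the difference of -0.43 (SE 0.27) did not pass (adjusted p = 0.511). That difference passed when only those 6 libraries were fitted (adjusted p = 1.81e-04) or without lenti-TCF7L2 replicate 3. Lenti-TCF7L2 replicate 3 stood apart: the median log2 difference from lenti-NC was 0.49 for the 1093 genes of up to 1000 bases and -0.98 for the 187 genes over 8000 bases. These medians were 0.14 and -0.33 in lenti-TCF7L2 replicate 1, -0.07 and -0.01 in replicate 2, and in the other libraries they stayed between -0.06 and 0.06. Cell type markers moved too, with all 6 of each list listed in every group and none at 0. The summed level of 6 cardiomyocyte markers was 7948 to 9375 CPM with lenti-TCF7L2, 17307 to 17829 CPM with lenti-shTCF7L2 and 18334 to 18713 CPM with lenti-NC. Myh6 was the largest part of this sum, at a mean of 4100 CPM with lenti-TCF7L2, 10653 CPM with lenti-shTCF7L2 and 11204 CPM with lenti-NC. With lenti-TCF7L2 against lenti-NC, 5 of the 6 were called lower, while Tnnt2 overlapped the control and did not pass (-0.49, edgeR, adjusted p = 0.0944). Endothelial markers summed to 98.2 to 149 CPM with lenti-TCF7L2, 32.2 to 33.7 CPM with lenti-shTCF7L2 and 26.5 to 31.2 CPM with lenti-NC, and macrophage markers to 68.4 to 74.6 CPM with lenti-TCF7L2, 33.4 to 36.5 CPM with lenti-shTCF7L2 and 36.3 to 38.5 CPM with lenti-NC. Both sums were highest in the lenti-TCF7L2 libraries, where the cardiomyocyte sum was lowest. Of the 6 macrophage markers, 4 were called higher and 0 lower with lenti-TCF7L2 against lenti-NC. Adgre1 averaged 2.95 CPM with lenti-TCF7L2 and 3.18 CPM with lenti-NC, and Csf1r, at 1.81 CPM with lenti-TCF7L2, was highest with lenti-shTCF7L2. Fibroblast markers summed to 32919 to 39464 CPM with lenti-TCF7L2, 32980 to 34668 CPM with lenti-shTCF7L2 and 29900 to 30941 CPM with lenti-NC, and smooth muscle and pericyte markers to 5266 to 6576 CPM with lenti-TCF7L2, 6225 to 6428 CPM with lenti-shTCF7L2 and 6455 to 6534 CPM with lenti-NC. Col1a1, the collagen α1(I) gene, averaged 22161 CPM with lenti-TCF7L2, 23421 CPM with lenti-shTCF7L2 and 18266 CPM with lenti-NC and thus made up most of the fibroblast sum, and other fibroblast markers moved apart from it. The matrix proteoglycan genes Dcn and Lum and the receptor gene Pdgfra rose with lenti-TCF7L2 against lenti-NC, by 0.90, 0.98 and 1.07 on the log2 scale (edgeR, adjusted p = 5.54e-04, 3.75e-04 and 0.00185). With lenti-shTCF7L2, 5 of the 6 fibroblast markers lay below the control in every library, with a median of -0.46 over the 6. Dcn fell by 0.94 and Lum by 0.67 (adjusted p = 0.00380 and 0.0135), while Pdgfra was at -0.64 (adjusted p = 0.0838). The macrophage marker Csf1r, at a mean of 2.30 CPM with lenti-shTCF7L2 and 0.918 CPM with lenti-NC, rose by 1.32, and the smooth muscle marker Cnn1 rose by 0.59 (adjusted p = 0.0263 and 0.0118). These shifts accompany the results below for both TCF7L2 viruses, and their part in those results was not tested. In bulk RNA, fewer cells of a type and less RNA per cell cannot be told apart.

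All 10 clock genes were expressed at intermediate levels. In lenti-NC cells their mean FPKM, a level per gene length, ran from 6.24 for Cry1 to 20.8 for Nr1d1, that is between the 33.9th and the 66.8th percentile of the genes tested. Nr1d1 (20.8 ± 0.06 FPKM, SD, n = 3) and Dbp (20.6 ± 1.16 FPKM) led with overlapping libraries, followed by Cry2 (17.1 ± 0.55 FPKM) and Nr1d2 (11.6 ± 0.33 FPKM). Clock (9.97 ± 0.40 FPKM) and Per3 (9.56 ± 0.37 FPKM) overlapped, Per1 stood at 8.52 ± 0.65 FPKM, and Per2 (6.71 ± 0.37 FPKM), Arntl (6.51 ± 0.15 FPKM) and Cry1 (6.24 ± 0.55 FPKM) could not be ordered. With lenti-shTCF7L2 the order was led by Dbp (16.1 ± 0.54 FPKM) and Cry2 (15.9 ± 0.69 FPKM), which overlapped, with Nr1d1 below them in every library (13.8 ± 0.16 FPKM), and Cry1 (6.83 ± 0.49 FPKM) and Arntl (6.28 ± 0.45 FPKM) overlapped at the low end. With lenti-TCF7L2, Dbp led (20.1 ± 2.94 FPKM), Nr1d1 (16.0 ± 0.74 FPKM) and Cry2 (14.7 ± 1.59 FPKM) overlapped below it, and the 7 genes from Per1 (8.65 ± 2.63 FPKM) down to Per2 (4.83 ± 1.54 FPKM) each overlapped the next.

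**Figure D1:**
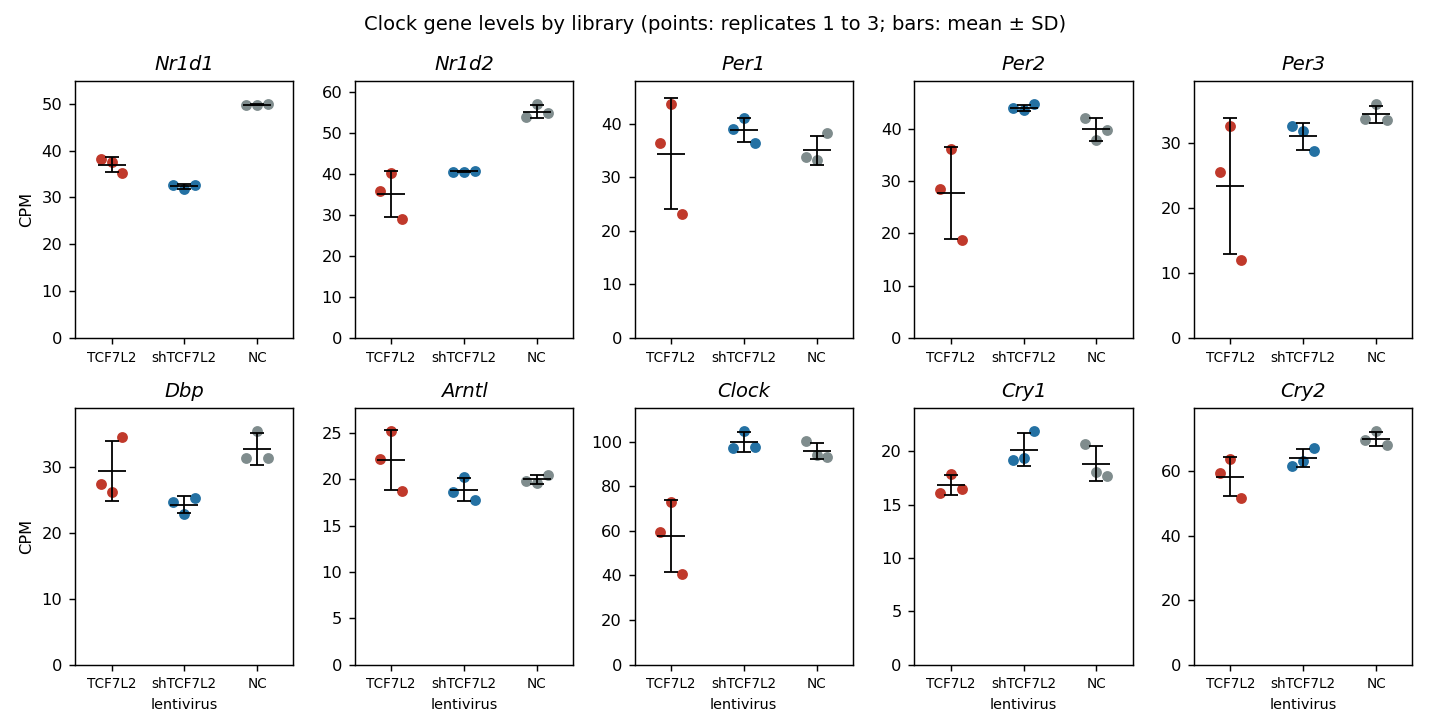
Levels of the 10 clock genes in CPM in each library, by lentivirus (TCF7L2, shTCF7L2, NC); points are replicates 1 to 3 from left to right, horizontal bars the mean and whiskers the SD. Nr1d1 and Nr1d2 sit below the control with both TCF7L2 viruses, Clock sits at 40.6 to 72.9 CPM with lenti-TCF7L2 against 93.3 to 100.2 CPM with lenti-NC, and replicate 3 is the lowest lenti-TCF7L2 library for 8 of the 10 genes.

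A gene is called here when its adjusted p was under 0.05 in edgeR's quasi-likelihood test, adjusted over all 11761 genes. In lenti-TCF7L2 against lenti-NC, 4 of the 10 clock genes were called, all lower (Nr1d1, Nr1d2, Clock and Cry2), where 31.8% of all genes were called (18.0% higher, 13.8% lower). Their median log2 difference was -0.35, against 0.03 over all genes. For 6 of them the 3 lenti-TCF7L2 libraries all lay below the 3 control libraries and for 0 above, where the groups did not overlap for 46.8% of all genes (24.9% higher, 22.0% lower). In lenti-shTCF7L2 against lenti-NC, 1 clock gene was called, Nr1d1, lower, where 3.64% of all genes were called, and the median was -0.11, against 0.01 over all genes. The groups did not overlap for 1 higher (Per2) and 5 lower clock genes, against 40.9% of all genes (19.9% higher, 21.0% lower). In lenti-TCF7L2 against lenti-shTCF7L2, 2 were called, Per2 and Clock, both lower, where 33.1% of all genes were called, and the median was -0.20, against 0.00 over all genes. Here the groups did not overlap for 2 higher and 4 lower clock genes, against 47.2% of all genes (24.1% higher, 23.2% lower). The first 2 comparisons share the lenti-NC libraries, and since the genes were chosen with these contrasts known, nothing is read from the counts.

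**Figure D2:**
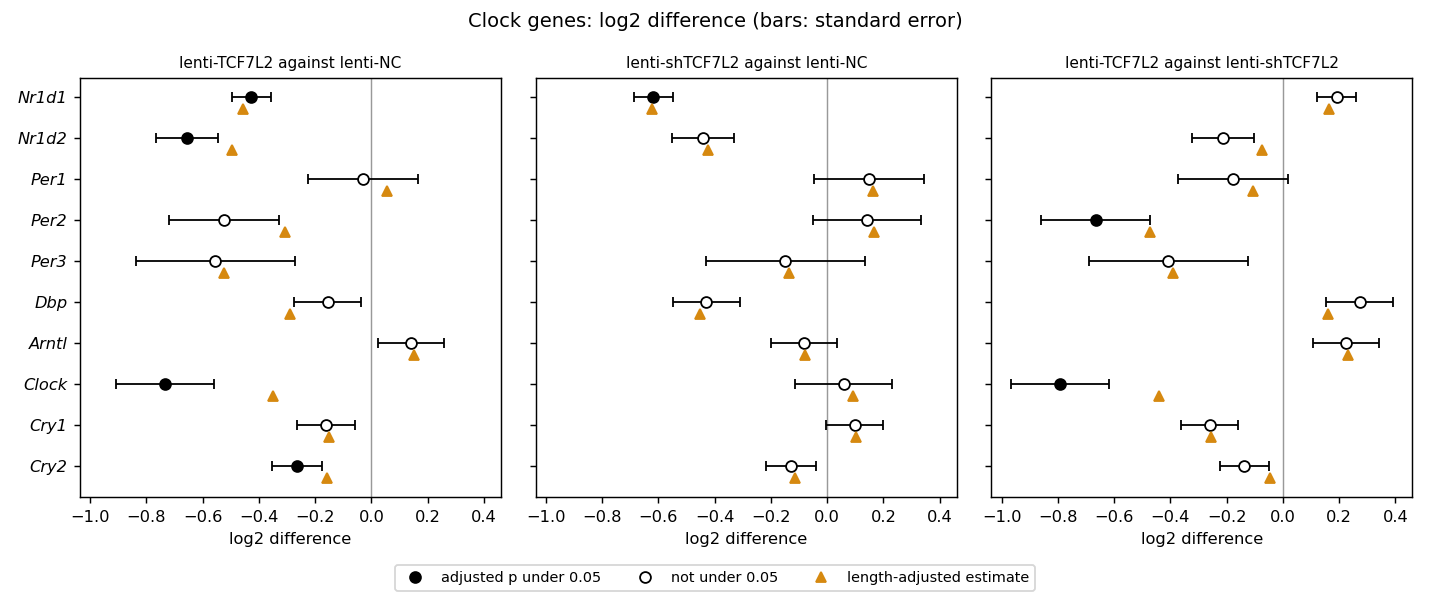
Log2 differences of the 10 clock genes in the 3 comparisons; circles are estimates with their standard error, filled where the adjusted p over all genes was under 0.05, and triangles are estimates after removing each library's trend with gene length. Nr1d1 lies left of 0 against lenti-NC for both viruses, at -0.43 and -0.62, while Clock lies at -0.74 with lenti-TCF7L2 and at 0.06 with lenti-shTCF7L2, and its lenti-TCF7L2 estimate moves to -0.35 after the length adjustment.

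The REV-ERB receptors repress Arntl, and both of their genes were lower than in the control with both viruses. Nr1d1 (REV-ERBα) stood at 38.3, 37.6 and 35.2 CPM with lenti-TCF7L2, at 32.7, 31.8 and 32.7 CPM with lenti-shTCF7L2 and at 49.8, 49.7 and 49.9 CPM with lenti-NC. The 3 groups did not overlap, and the lenti-shTCF7L2 libraries were the lowest. Relative to the control, Nr1d1 fell by 0.43 (log2, SE 0.07) with lenti-TCF7L2 and by 0.62 (SE 0.07) with lenti-shTCF7L2, to 0.744 and 0.652 times its level there. Both calls held when any 1 library was left out, and the length adjustment gave -0.46 and -0.62. Between the viruses, Nr1d1 was 0.19 higher with lenti-TCF7L2 (SE 0.07), which was not called. It was called on FPKM, with the length adjustment and in the leave-out of lenti-TCF7L2 replicate 3 (0.23). In the GRCr8 annotation Nr1d1 overlaps Thra, the thyroid hormone receptor α gene on the other strand, and the strand setting of the counting is not given in the sources used here, so reads of the pair cannot be told apart where they overlap. Thra itself averaged 90.8 CPM with lenti-TCF7L2, 87.6 CPM with lenti-shTCF7L2 and 86.9 CPM with lenti-NC, and its differences from lenti-NC of 0.06 and 0.01 did not pass (adjusted p = 0.572 and 0.980).

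Nr1d2 (REV-ERBβ) stood at 35.7, 40.3 and 29.1 CPM with lenti-TCF7L2, at 40.5, 40.5 and 40.8 CPM with lenti-shTCF7L2 and at 53.8, 56.9 and 54.8 CPM with lenti-NC. Every library of both TCF7L2 viruses lay below every control library, and those of lenti-TCF7L2 below those of lenti-shTCF7L2. Nr1d2 fell by 0.66 with lenti-TCF7L2 (SE 0.11), a call that held in every leave-out, with -0.50 after the length adjustment and -0.56 without lenti-TCF7L2 replicate 3. The lenti-shTCF7L2 difference was -0.44 (SE 0.11) and was not called. That difference was called by DESeq2, in the fit of 6 libraries, with the length adjustment, and without lenti-TCF7L2 replicate 2 (-0.44) or 3 (-0.46). In FPKM, Nr1d1 stood at 2.12 times Nr1d2 with lenti-TCF7L2 (1.85 to 2.39 over the libraries), 1.58 times with lenti-shTCF7L2 (1.56 to 1.60) and 1.79 times with lenti-NC (1.73 to 1.83).

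The 3 Period genes, whose proteins block the BMAL1-CLOCK pair, varied most between the lenti-TCF7L2 libraries. Per1 stood at 36.4, 43.7 and 23.2 CPM with lenti-TCF7L2, at 39.1, 41.1 and 36.5 CPM with lenti-shTCF7L2 and at 33.8, 33.3 and 38.2 CPM with lenti-NC, and all 3 groups overlapped. Its log2 differences from lenti-NC were -0.03 with lenti-TCF7L2 (SE 0.20) and 0.15 with lenti-shTCF7L2 (SE 0.20). The first changed sign without lenti-TCF7L2 replicate 3 (0.17), without lenti-NC replicate 3 (0.03) and with the length adjustment (0.06). Between the viruses it was -0.18 (SE 0.19), and 0.04 without lenti-TCF7L2 replicate 3.

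Per2 stood at 28.4, 36.2 and 18.7 CPM with lenti-TCF7L2, at 44.0, 43.6 and 44.7 CPM with lenti-shTCF7L2 and at 42.1, 37.8 and 39.8 CPM with lenti-NC. Its lenti-TCF7L2 libraries lay below both other groups, and its lenti-shTCF7L2 libraries lay above the control. Between the viruses the log2 difference was -0.67 (SE 0.19), lower with lenti-TCF7L2 and called. That call was lost in the fit of 6 libraries, without lenti-TCF7L2 replicate 1 (-0.70) and without any 1 lenti-shTCF7L2 library (-0.68, -0.69 and -0.66), and the value without lenti-TCF7L2 replicate 3 was -0.45. Against lenti-NC the difference was -0.52 with lenti-TCF7L2 (SE 0.19) and 0.14 with lenti-shTCF7L2 (SE 0.19), neither called. The first was called by DESeq2, with the length adjustment (-0.31), and without lenti-TCF7L2 replicate 2 (-0.77) or 3 (-0.32).

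Per3 stood at 25.6, 32.7 and 12.1 CPM with lenti-TCF7L2, at 32.7, 31.8 and 28.7 CPM with lenti-shTCF7L2 and at 33.8, 36.0 and 33.6 CPM with lenti-NC. Its lenti-TCF7L2 libraries spanned 1.43 on the log2 scale, against 0.18 with lenti-shTCF7L2 and 0.10 with lenti-NC, the widest range of the 10 genes. Its differences from lenti-NC, -0.55 with lenti-TCF7L2 (SE 0.28) and -0.15 with lenti-shTCF7L2 (SE 0.28), were not called, although no library of either virus reached the control. Both SEs include the spread of the lenti-TCF7L2 libraries. The lenti-TCF7L2 value was -0.26 without replicate 3, and -0.88 and called without replicate 2. Between the viruses it was -0.41 (SE 0.28), and -0.09 without lenti-TCF7L2 replicate 3. In FPKM, Per1 stood at 1.79 times Per2 with lenti-TCF7L2 (1.74 to 1.85), 1.28 times with lenti-shTCF7L2 (1.18 to 1.36) and 1.27 times with lenti-NC (1.16 to 1.39), so for this ratio the 3 lenti-TCF7L2 libraries lay together, above all 6 others.

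The Cryptochromes are the partners of PER in that repression. Cry1 stood at 16.1, 17.9 and 16.5 CPM with lenti-TCF7L2, at 19.2, 19.4 and 21.9 CPM with lenti-shTCF7L2 and at 20.7, 18.1 and 17.7 CPM with lenti-NC, and the first and second groups each overlapped the control. Its differences from lenti-NC were -0.16 (SE 0.10) and 0.10 (SE 0.10), and between the viruses -0.26 (SE 0.10), none called. Without lenti-TCF7L2 replicate 2 the last was -0.31 and called. Cry2 stood at 59.4, 63.8 and 51.7 CPM with lenti-TCF7L2, at 61.7, 63.3 and 67.3 CPM with lenti-shTCF7L2 and at 69.6, 72.5 and 68.1 CPM with lenti-NC. Both viruses lay below the control in every library and overlapped each other. Cry2 fell by 0.26 with lenti-TCF7L2 (SE 0.09), a call that, unlike the other 3, was lost in leave-outs. These were without lenti-TCF7L2 replicate 1 (-0.29), without any 1 lenti-shTCF7L2 library (-0.28, -0.28 and -0.27) or any 1 lenti-NC library (-0.27, -0.24 and -0.29), and the call was lost on FPKM too. With lenti-shTCF7L2 the difference was -0.13 (SE 0.09), not called. The FPKM ratio of Cry1 to Cry2 was 0.370 to 0.434 with lenti-TCF7L2, 0.417 to 0.443 with lenti-shTCF7L2 and 0.339 to 0.405 with lenti-NC.

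Of the activator pair, Clock fell with lenti-TCF7L2 and Arntl was not called in any comparison. Clock stood at 59.3, 72.9 and 40.6 CPM with lenti-TCF7L2, at 97.2, 105 and 97.6 CPM with lenti-shTCF7L2 and at 100.2, 94.3 and 93.3 CPM with lenti-NC. The lenti-TCF7L2 libraries lay below all 6 others, which overlapped each other. Clock fell by 0.74 with lenti-TCF7L2 against lenti-NC (SE 0.17) and by 0.79 against lenti-shTCF7L2 (SE 0.17), and both calls held in every leave-out. With lenti-shTCF7L2 the difference from lenti-NC was 0.06 (SE 0.17), not called. At 9284 bases Clock is the longest of the 10 genes, and its lenti-TCF7L2 differences were -0.35 and -0.44 with the length adjustment, both still called. Without lenti-TCF7L2 replicate 3 the difference from lenti-NC was -0.55.

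Arntl, its partner, stood at 22.2, 25.2 and 18.8 CPM with lenti-TCF7L2, at 18.7, 20.2 and 17.7 CPM with lenti-shTCF7L2 and at 19.8, 19.6 and 20.5 CPM with lenti-NC, and the groups overlapped. Its differences from lenti-NC were 0.14 (SE 0.12) and -0.08 (SE 0.12), neither called, and between the viruses 0.22 (SE 0.12), which was called only without lenti-TCF7L2 replicate 3 (0.33) among the leave-outs. The FPKM of Arntl was 1.23 times that of Clock with lenti-TCF7L2 (1.08 to 1.44), 0.592 times with lenti-shTCF7L2 (0.569 to 0.604) and 0.654 times with lenti-NC (0.620 to 0.689). This ratio was above 1 in all 3 lenti-TCF7L2 libraries and below it in all 6 others.

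**Figure D3:**
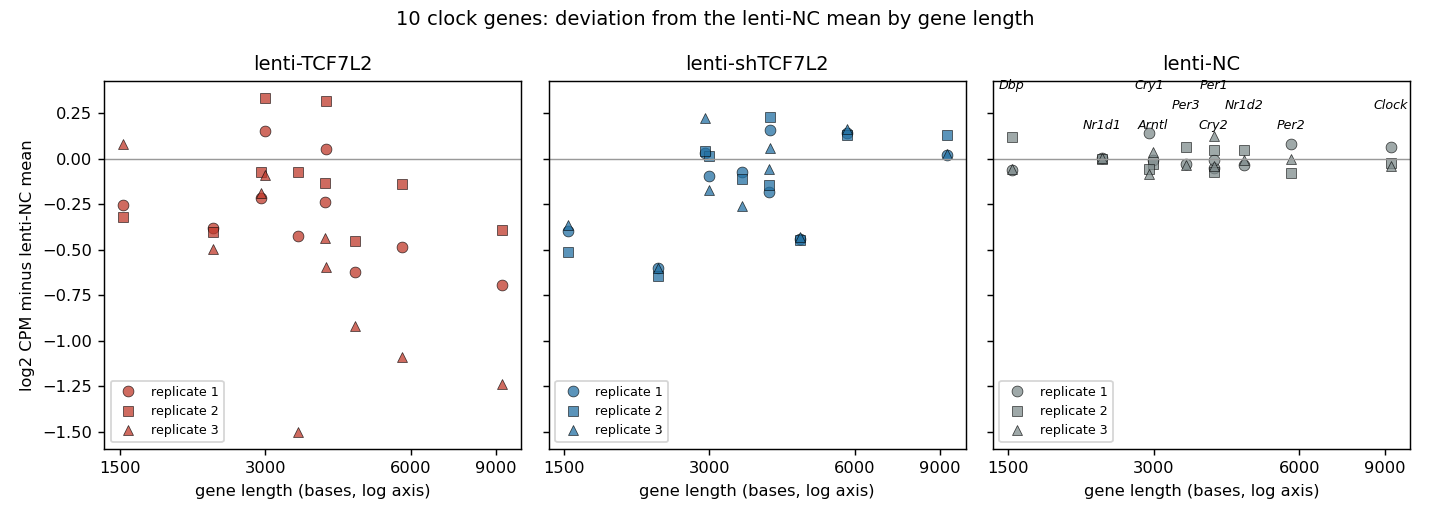
Difference of each clock gene from its lenti-NC mean (log2 CPM) in each library, against gene length in bases on a log axis, by lentivirus; symbols mark replicates, and gene names stand at their lengths in the lenti-NC panel. Lenti-TCF7L2 replicate 3 runs from 0.08 for Dbp, the shortest gene, to -1.24 for Clock, the longest, with Per3 lowest at -1.50, while lenti-shTCF7L2 replicates lie close together, with Nr1d1 at -0.60 to -0.64 and Nr1d2 at -0.43 to -0.44.

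Dbp, the D-box activator that the clock drives through E-boxes in mice, stood at 27.4, 26.2 and 34.6 CPM with lenti-TCF7L2, at 24.7, 22.9 and 25.4 CPM with lenti-shTCF7L2 and at 31.3, 35.5 and 31.4 CPM with lenti-NC. All lenti-shTCF7L2 libraries lay below both other groups, and lenti-TCF7L2 overlapped the control through its replicate 3. The log2 difference of lenti-shTCF7L2 was -0.43 (SE 0.12), not called; it was called by DESeq2, in the fit of 6 libraries, with the length adjustment and in the leave-out of lenti-TCF7L2 replicate 3 (-0.45). For lenti-TCF7L2 it was -0.16 (SE 0.12), not called, and -0.31 and called without replicate 3. At 1527 bases Dbp is the shortest of the 10 genes, and the length adjustment gave -0.29, called. Between the viruses Dbp was 0.27 higher with lenti-TCF7L2 (SE 0.12), not called, but called on FPKM and without lenti-TCF7L2 replicate 2 (0.35). It was 0.14 without lenti-TCF7L2 replicate 3, 0.16 with the length adjustment and 0.11 with both, not called.

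A balance between sets of the clock genes was described per library. It was the mean log2 CPM of Nr1d1, Nr1d2, Per1, Per2, Per3 and Dbp minus that of Arntl, Clock and Cry1. Cry1, a repressor, was thus set with the activator pair, and Cry2 was in neither set. The balance was 0.19, 0.15 and 0.04 with lenti-TCF7L2, 0.098, -0.0021 and 0.023 with lenti-shTCF7L2 and 0.21, 0.34 and 0.32 with lenti-NC. Both viruses lay below every control library and overlapped each other. Relative to lenti-NC it differed by -0.16 in lenti-TCF7L2, or -0.12 without replicate 3, and by -0.25 in lenti-shTCF7L2. As CPM is not per length, only these differences, and not the level of the balance, can be compared, and no test was made because the genes were chosen with values known.

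Among 8542 other genes with a mean of at least 10 CPM, the profiles closest to 3 of the clock genes were found by the root-mean-square difference of log2 CPM over the 9 libraries, each centred on its lenti-NC mean. Closest to Nr1d1 were Fgfr2 (0.065), Pygb (0.081), Jup (0.082) and Bcl2l2 (0.084), to Dbp Hibadh (0.065), Twf2 (0.077), Rab28 (0.079) and Trappc5 (0.088), and to Arntl Inpp5b (0.045), Gle1 (0.051), Gng12 (0.063) and Rbms2 (0.064). The 4 genes nearest to Nr1d1 differed from lenti-NC by -0.35 to -0.51 with lenti-TCF7L2 and by -0.51 to -0.71 with lenti-shTCF7L2. That they share its direction follows from their choice by likeness. These are likenesses over 9 libraries of 3 groups and are given without a test.

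Of 36 other genes of the clock pathway, 29 were tested. In lenti-TCF7L2 against lenti-NC, 4 rose and 8 fell, where 18.0% of all genes were called higher and 13.8% lower, and their median log2 difference was -0.17, against 0.03 over all genes. In lenti-shTCF7L2 against lenti-NC, 0 rose and 1 fell in edgeR's test, where 1.32% and 2.32% of all genes were called; 8 were lower at an unadjusted p under 0.05, DESeq2 called 1, and the median was -0.10. In lenti-TCF7L2 against lenti-shTCF7L2, 6 were called higher and 7 lower, where 18.4% and 14.7% of all genes were called, with a median of -0.12. Rora, Bhlhe41, Hlf, Sirt1 and Ucp3 were among those not analysed here, and Rorb, at 0 to 4 counts a library, did not pass the filter on low counts. Adjusted p-values of this and the following paragraphs come from edgeR's quasi-likelihood test over all genes.

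**Figure D4:**
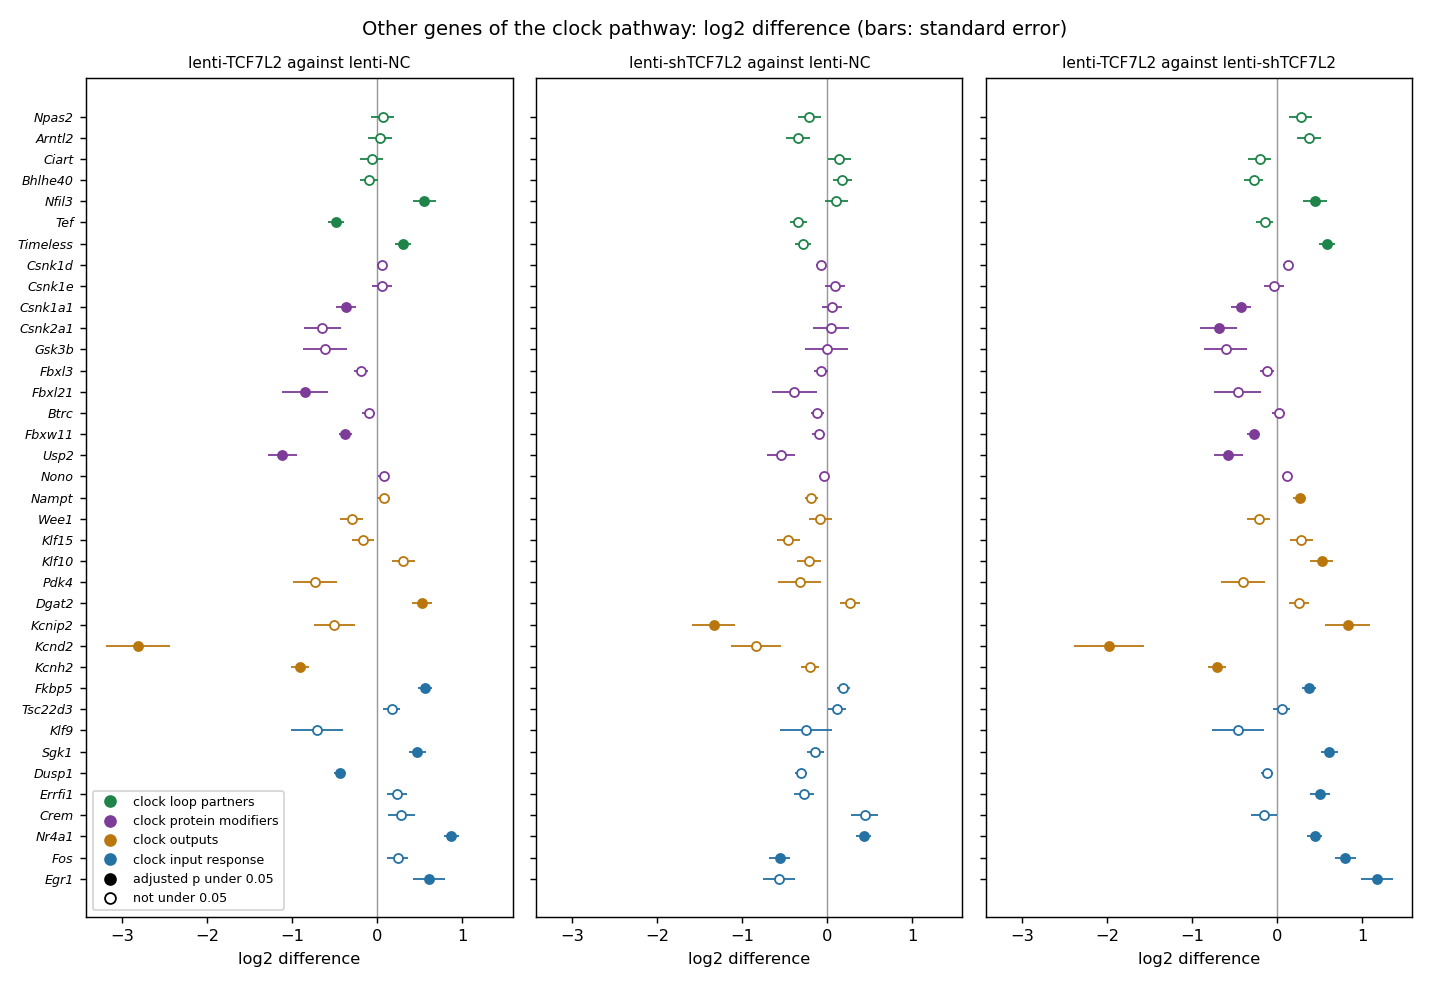
Log2 differences with standard errors of 27 of the 29 other clock pathway genes tested and 10 genes of the clock's input response in the 3 comparisons, coloured by list; filled circles have an adjusted p under 0.05. Most filled circles are in the 2 comparisons with lenti-TCF7L2, Kcnd2 lies farthest left at -2.82, and Kcnip2 is the 1 filled clock output with lenti-shTCF7L2, at -1.34.

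Of the 7 tested partners of the core loop, 2 rose and 1 fell with lenti-TCF7L2 against lenti-NC, 0 passed with lenti-shTCF7L2 by edgeR or DESeq2 (3 lower at an unadjusted p under 0.05), and 2 rose between the viruses. Of all genes, 18.0% were called higher and 13.8% lower in the first of these comparisons, and 18.4% higher and 14.7% lower in the last. Their median log2 differences were 0.03, -0.21 and 0.28 in the 3 comparisons. Tef, a D-box activator of the same family as Dbp, fell to 44.7, 43.6 and 35.8 CPM with lenti-TCF7L2, against 56.3, 57.8 and 59.9 CPM with lenti-NC (log2 difference -0.49, SE 0.10, adjusted p = 0.00531). With lenti-shTCF7L2 Tef stood at 47.6, 43.1 and 46.8 CPM, below every control library, but did not pass (-0.34, adjusted p = 0.105). Nfil3, the repressor that competes for D-boxes, rose to 46.3, 42.6 and 62.9 CPM with lenti-TCF7L2, against 34.4, 33.7 and 35.3 CPM with lenti-NC (0.55, adjusted p = 0.0154), and was at 34.4 to 39.3 CPM with lenti-shTCF7L2. Without lenti-TCF7L2 replicate 3 its difference was 0.35, and the call was lost without lenti-NC replicate 1 or 2 (highest adjusted p = 0.0578). Timeless, a replication fork protein tied to the clock, stood at 15.1 ± 0.31 CPM with lenti-TCF7L2, 10.0 ± 0.70 CPM with lenti-shTCF7L2 and 12.2 ± 0.60 CPM with lenti-NC (SD, n = 3 each). Its rise between the viruses was 0.59 (adjusted p = 0.00159) and held in every leave-out, whereas its rise against lenti-NC (0.30, adjusted p = 0.0382) was lost when any library other than lenti-TCF7L2 replicate 2 or 3 was left out (highest adjusted p = 0.125). Npas2, Arntl2, Ciart and Bhlhe40 passed in no comparison.

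Of the 11 tested kinases, ubiquitin ligase subunits and other modifiers of clock proteins, 0 rose and 4 fell with lenti-TCF7L2 against lenti-NC, 0 passed with lenti-shTCF7L2 by edgeR or DESeq2 (1 lower at an unadjusted p under 0.05), and 4 were lower between the viruses, with medians of -0.37, -0.07 and -0.28. The shares of all genes called higher and lower were 18.0% and 13.8% with lenti-TCF7L2 against lenti-NC. They were 1.32% and 2.32% with lenti-shTCF7L2 against lenti-NC, and 18.4% and 14.7% between the viruses. Usp2, a deubiquitinase that is rhythmic in many mouse tissues, stood at 18.9, 20.0 and 11.9 CPM with lenti-TCF7L2, at 24.5, 26.7 and 24.4 CPM with lenti-shTCF7L2 and at 35.3, 36.6 and 38.3 CPM with lenti-NC. It fell by 1.12 with lenti-TCF7L2 (SE 0.17, adjusted p = 0.00157), while the -0.54 with lenti-shTCF7L2 did not pass (adjusted p = 0.133), although its 3 groups did not overlap. Fbxw11, the F-box protein β-TrCP2 that marks phosphorylated PER for breakdown, fell to 79.7 ± 7.14 CPM with lenti-TCF7L2, against 104 ± 4.07 CPM with lenti-NC (SD, n = 3 each; -0.38, adjusted p = 0.00638). Csnk1a1, casein kinase 1α, fell by 0.37 (adjusted p = 0.0439) and Fbxl21, a CRY-binding F-box protein, by 0.85 (log2 difference -0.85, adjusted p = 0.0407). The Csnk1a1 call was lost when any library other than lenti-TCF7L2 replicate 2 or 3 was left out, and that of Fbxl21, with only 16 to 48 counts a library, without lenti-TCF7L2 replicate 3 (-0.61), lenti-shTCF7L2 replicate 1 or 3 or any 1 lenti-NC library (highest adjusted p = 0.132 and 0.127). Between the viruses, Csnk1a1 (-0.42, adjusted p = 0.0252), Csnk2a1, the catalytic subunit of casein kinase 2 (-0.69, adjusted p = 0.0384), Fbxw11 (-0.28, adjusted p = 0.0239) and Usp2 (-0.57, adjusted p = 0.0308) were lower with lenti-TCF7L2. Each of these 4 calls was lost in some leave-outs: Csnk1a1 without lenti-shTCF7L2 replicate 1 or 3; Fbxw11 without lenti-TCF7L2 replicate 1 or lenti-shTCF7L2 replicate 2 or 3; Usp2 without any 1 library of lenti-shTCF7L2 or lenti-NC; and Csnk2a1 without any library but lenti-TCF7L2 replicates 2 and 3. The highest adjusted p was 0.0841, 0.0768, 0.0889 and 0.0894 in that order. Without lenti-TCF7L2 replicate 3 the difference between the viruses was -0.44 for Csnk2a1 and -0.37 for Usp2.

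Among 11 tested outputs of the clock, 2 rose and 3 fell with lenti-TCF7L2 against lenti-NC, and the potassium channel genes Kcnh2 and Kcnd2 were among those that fell. With lenti-shTCF7L2 1 fell, between the viruses 4 were higher and 3 lower, and the medians of the list were -0.30, -0.20 and 0.26. Over all genes, 18.0% were called higher and 13.8% lower in the first comparison, 2.32% lower in the second, and 18.4% higher and 14.7% lower in the third. Kcnh2, the potassium channel ERG1, stood at 64.0, 71.3 and 52.3 CPM with lenti-TCF7L2, at 103, 99.7 and 102 CPM with lenti-shTCF7L2 and at 113, 117 and 121 CPM with lenti-NC (log2 difference -0.91 against lenti-NC, adjusted p = 3.91e-04). Kcnd2, the Kv4.2 subunit, held 5, 5 and 1 counts with lenti-TCF7L2, 12, 16 and 14 counts with lenti-shTCF7L2 and 24, 23 and 27 counts with lenti-NC (-2.82, SE 0.38, adjusted p = 7.97e-04). At such low counts the size is uncertain: it ran from -3.12 to -2.38 with 1 library left out, and was -0.41 on log2 FPKM with a pseudocount of 1, called each time. Both were also lower with lenti-TCF7L2 than with lenti-shTCF7L2, by a log2 difference of -0.70 for Kcnh2 (adjusted p = 0.00107) and -1.98 for Kcnd2 (adjusted p = 0.00617; -0.22 on log2 FPKM with that pseudocount), and these calls held with each library left out in turn. These channel genes share their direction with the cardiomyocyte marker sum, 7948 to 9375 CPM with lenti-TCF7L2 against 18334 to 18713 CPM with lenti-NC, and the part of that shift in these values was not tested. Dgat2, which makes triglycerides, rose by 0.52 (adjusted p = 0.00999) with lenti-TCF7L2.

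Kcnip2, the Kv4 channel subunit KChIP2 that follows the clock in mouse heart, was the 1 output that passed with lenti-shTCF7L2. It stood at 4.66, 3.69 and 3.05 CPM with lenti-TCF7L2, at 2.51, 1.63 and 2.26 CPM with lenti-shTCF7L2 and at 3.90, 6.47 and 5.82 CPM with lenti-NC. Its log2 difference with lenti-shTCF7L2 was -1.34 (SE 0.26, adjusted p = 0.0235), with lenti-TCF7L2 -0.51 (adjusted p = 0.135), and between the viruses 0.83 (adjusted p = 0.0384). The lenti-shTCF7L2 call was lost without any 1 lenti-shTCF7L2 library or lenti-NC replicate 2 or 3, and the call between the viruses without lenti-TCF7L2 replicate 1, any 1 lenti-shTCF7L2 library or lenti-NC replicate 3 (highest adjusted p = 0.121 and 0.139). Klf15, a regulator of Kcnip2 in mice, stood at 18.3 ± 1.18 CPM with lenti-TCF7L2, 15.0 ± 2.48 CPM with lenti-shTCF7L2 and 20.6 ± 1.92 CPM with lenti-NC (SD, n = 3 each) and passed in no comparison. Nampt, the rate-limiting enzyme of NAD salvage, and Klf10, a zinc finger repressor, were higher with lenti-TCF7L2 than with lenti-shTCF7L2, by 0.27 and 0.52 (adjusted p = 0.0262 and 0.0189). Both calls were lost without lenti-TCF7L2 replicate 1 or lenti-shTCF7L2 replicate 3, that of Nampt also without lenti-shTCF7L2 replicate 1 and that of Klf10 also without lenti-shTCF7L2 replicate 2 (highest adjusted p = 0.101 and 0.0769).

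Serum and glucocorticoids act on the clock, and 10 genes that respond to such signals were described as the input response. Whether these genes carry the signals to the clock was not tested. With lenti-TCF7L2 against lenti-NC, 4 rose and 1 fell, with lenti-shTCF7L2 1 rose and 1 fell, and between the viruses 6 rose and 0 fell in edgeR's test, with 0 lower at an unadjusted p under 0.05 or by DESeq2 as well. The shares of all genes called higher and lower were 18.0% and 13.8% in the first comparison, 1.32% and 2.32% in the second and 18.4% and 14.7% in the third. The medians of the 10 genes in these comparisons were 0.26, -0.20 and 0.41 on the log2 scale, against 0.03, 0.01 and 0.00 over all genes. Nr4a1, an orphan nuclear receptor induced by serum, stood at 51.3, 45.6 and 43.4 CPM with lenti-TCF7L2, at 33.9, 36.2 and 33.2 CPM with lenti-shTCF7L2 and at 24.8, 26.9 and 25.0 CPM with lenti-NC. It was above the control in all 6 libraries and rose by 0.87 with lenti-TCF7L2 (adjusted p = 2.26e-04) and by 0.43 with lenti-shTCF7L2 (adjusted p = 0.0326). The second call was lost without any 1 library of lenti-shTCF7L2 or lenti-NC (highest adjusted p = 0.164).

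Egr1 and Fos, immediate early transcription factors, had their highest mean with lenti-TCF7L2 and their lowest with lenti-shTCF7L2. Egr1 stood at 93.8, 131 and 70.7 CPM with lenti-TCF7L2, at 45.2, 42.5 and 43.1 CPM with lenti-shTCF7L2 and at 65.1, 67.7 and 60.8 CPM with lenti-NC, and Fos at 19.3, 19.8 and 15.0 CPM with lenti-TCF7L2, at 10.2, 9.65 and 11.1 CPM with lenti-shTCF7L2 and at 15.5, 14.5 and 15.7 CPM with lenti-NC. Between the viruses they rose by 1.18 and 0.80 (adjusted p = 0.00157 and 0.00136), calls that held in every leave-out. Against lenti-NC, Egr1 rose by 0.61 with lenti-TCF7L2 (adjusted p = 0.0348) and Fos fell by 0.56 with lenti-shTCF7L2 (adjusted p = 0.0462), and both calls were lost when any library other than lenti-TCF7L2 replicate 2 or 3 was left out (highest adjusted p = 0.110 and 0.206). Without lenti-TCF7L2 replicate 2 the rise of Egr1 was 0.34. Fkbp5 and Sgk1, known glucocorticoid targets, rose with lenti-TCF7L2 against lenti-NC by 0.57 and 0.47 (adjusted p = 0.00113 and 0.00644), while Dusp1, a phosphatase that ends kinase signalling and a glucocorticoid target as well, fell by 0.44 (adjusted p = 0.00219). Between the viruses Fkbp5 (0.37, adjusted p = 0.00714), Sgk1 (0.61, adjusted p = 0.00153), Nr4a1 (0.44, adjusted p = 0.00509) and Errfi1, a feedback inhibitor of the EGF receptor (0.51, adjusted p = 0.0113), were higher with lenti-TCF7L2. No hormone or serum level other than the 10% serum of the medium is given in the labels.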

How the data were processed

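Per the labels' protocols, 9 libraries (3 per lentivirus) were made from oligo(dT)-enriched RNA and read on the BGISEQ-500. Build rn6 and the tools RSEM 1.3.1, DESeq2 1.4.5, HISAT2 and Bowtie2 are named without roles in the submitters' processing notes. Each library's table, as the authors deposited it, holds expected counts (estimated fragments per gene), FPKM (per gene length and library size) and gene length, per the file headers. Between 84.2% and 84.5% of a library's expected counts were whole, and genes absent from a table were set to 0. Groups follow the sample titles, although file names say GFP for the vector control and WT for the overexpression virus.

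Expected counts were rounded, filtered with filterByExpr (11761 of 14607 genes kept) and scaled with TMM, and edgeR 4.0.16 in R 4.3.3 fitted group to all 9 libraries with a 2-sided quasi-likelihood test, adjusted after Benjamini and Hochberg over all genes tested. The spread of each gene thus comes from all 3 groups, and p-values measure the spread between these libraries, which may be technical. Correlations of log2 CPM between replicates were 0.948 to 0.991 with lenti-TCF7L2 and 0.994 to 0.995 in the other groups. The wider spread of lenti-TCF7L2 enters the SE and calls of lenti-shTCF7L2 against lenti-NC too. The biological coefficient of variation was 14.9%. A floor of 3 counts is 0.182 to 0.199 CPM, covering counting error only. The length adjustment entered each library's lowess trend (span 0.3) of log2 difference on log2 length as an offset. Log2 CPM used a prior count of 2. The edgeR procedure was tested on simulated counts with the same spread in every group and no trend with length. That test thus does not cover the wider spread and the length trend of the lenti-TCF7L2 libraries.

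The clock genes, the lists, the tests and the alternatives were chosen with earlier results of these data known, and the lists come from textbook knowledge. Named genes were the 10 clock genes, up to 8 per list called in any comparison with the smallest adjusted p, Tcf7l2, and the 4 profiles most like Nr1d1, Dbp and Arntl. Thra was added because it overlaps Nr1d1, and Klf15 and genes that passed in no comparison were named after their values were seen. Some genes of the lists are counted in them but not reported here by name or drawn. Alternatives were RLE scaling, no filter, DESeq2 1.42.0, limma-trend (limma 3.58.1) on log2 FPKM plus 1 or 0.1, a replicate block, only the 6 libraries compared, the length adjustment, each library left out, and the length adjustment without lenti-TCF7L2 replicate 3, the last chosen after seeing the data. Promoter windows are from RefSeq on GRCr8, not the build of the counts.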

Additional observations from a re-analysis of the deposited data

How the results depend on the processing

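No log2 difference of a clock gene that was called changed direction under any alternative run. For the 10 clock genes, 484 of 540 values kept their call, or stayed uncalled and within the SD between replicates of the reported value. A further 17 lost a call, 36 gained one and 3 stayed uncalled but moved by more than that SD. Uncalled values of Per1 that changed sign are among the 484, 4 with lenti-TCF7L2 against lenti-NC and 2 between the viruses. For the other named and listed genes these were 1978, 113, 99 and 24 of 2214, and some uncalled values changed sign there as well. The balance between sets of the clock genes kept its direction with a prior count of 0.5, on log2 FPKM plus 0.1 and without lenti-TCF7L2 replicate 3. It was not computed under the other alternatives, the length adjustment among them. Changing the scaling moved the median of all genes by under 0.05 on the log2 scale.

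Clock genes called with lenti-TCF7L2 against lenti-NC, 4 as reported, were 3 to 6 when 1 library was left out and 8 with the length adjustment without lenti-TCF7L2 replicate 3. With lenti-shTCF7L2 against lenti-NC, 1 became 3 under DESeq2, with 6 libraries, with the length adjustment and with that adjustment without lenti-TCF7L2 replicate 3, and 1 to 3 in the leave-outs. Between the viruses, 2 became 4 on log2 FPKM with a pseudocount of 1 and 4 with 0.1, 1 with 6 libraries, 5 with the length adjustment without lenti-TCF7L2 replicate 3, and 1 to 6 in the leave-outs. Other clock pathway genes called were 12, 1 and 13 in the 3 comparisons. In the leave-outs they were 8 to 16, 0 to 8 and 5 to 17. For lenti-shTCF7L2 against lenti-NC they were 0 with the replicate block, 13 with 6 libraries, 2 with the length adjustment and 11 with that adjustment without lenti-TCF7L2 replicate 3, and between the viruses 5 with 6 libraries. Over all genes, 3741 calls with lenti-TCF7L2 against lenti-NC became 2321 with 6 libraries and 2430 to 5503 in the leave-outs. The 428 calls with lenti-shTCF7L2 became 651 under DESeq2, 244 with the replicate block, 3294 with 6 libraries, 979 with the length adjustment, 2603 with that adjustment without lenti-TCF7L2 replicate 3, and 88 to 2056 in the leave-outs. The 3890 calls between the viruses became 5977 with the length adjustment without lenti-TCF7L2 replicate 3, and 2649 to 5405 in the leave-outs. The fits of 6 hold fewer libraries and take their spread from the groups compared only. Calls rose there for lenti-shTCF7L2 against lenti-NC and fell in the comparisons with lenti-TCF7L2. The cause of these shifts was not tested.

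Residual correlations between libraries that share a replicate number were -0.067 to 0.151, with 2 of 9 over 0.1. These 2 pair lenti-TCF7L2 replicate 3 with replicate 3 of lenti-NC (0.151) and of lenti-shTCF7L2 (0.106). The block entered no comparison of the report. With the replicate block 3 clock genes were called with lenti-TCF7L2 against lenti-NC, Cry2 having lost its call at -0.27, 1 with lenti-shTCF7L2 and 2 between the viruses. Calls lost with the block among the other named genes were those of Timeless, Csnk1a1 and Fbxl21 with lenti-TCF7L2 against lenti-NC, of Kcnip2, Nr4a1 and Fos with lenti-shTCF7L2 against lenti-NC, and of Kcnip2 between the viruses.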
